A study of Mus musculus with 32 samples.

Results

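*Ptprn* and 9 other genes of neuroendocrine secretion were followed through sorted mouse lung tumor cells in which the tumor suppressor *Lkb1* (gene symbol *Stk11*) was intact, trapped or restored. The 10 genes, *Ptprn*, *Ptprn2*, *Nptx1*, *Scg2*, *Scg5*, *Chga*, *Chgb*, *Pcsk1*, *Dlk1* and *Sstr2*, were taken by symbol from the 53558 genes in the files. *Ptprn* and *Nptx1* were selected on their measured levels, lower after *Lkb1* restoration than without it, and the other 8 were added for comparison as genes of secretory granules and peptide signaling. The values of *Ptprn* and *Nptx1* in that comparison with wild-type *Trp53*, and in the *KT* comparisons that use the same libraries, are therefore given as a description without a test.

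All tumors carried a tdTomato reporter and were started by lentiviral Cre. By the study's methods *KT* tumors received a lower virus dose than XTR tumors, so dose and *Lkb1* genotype cannot be told apart in any comparison with *KT*. *KT* tumors kept wild-type *Lkb1*, have no treatment listed and were collected, like all tumors with wild-type *Trp53*, at 24 to 27 weeks (n = 4). Non-restored tumors were *Lkb1* XTR/XTR, an allele in which Cre flips a gene trap that stops *Lkb1* transcripts (n = 10). These were either *FLPo-ERT2* animals given vehicle (6 libraries) or animals without *FLPo-ERT2* given tamoxifen (4 libraries). Restored tumors were *Lkb1* XTR/XTR with *FLPo-ERT2*, a recombinase that deletes the trap, and received 4 mg doses of tamoxifen within 2 weeks of treatment (n = 7). Tumors of both XTR genotypes that also lacked *Trp53* were taken at 16 to 19 weeks and gave 7 non-restored libraries from 4 animals and 4 restored libraries. Of these non-restored animals, 1 and 2 carried *FLPo-ERT2* and were given vehicle, and 3 and 4 lacked it and were given tamoxifen. The restored ones carried *FLPo-ERT2* and were given tamoxifen. All restored libraries were from females, whereas males and females were present in the other groups, and *Trp53*-deficient tumors were younger than the others, so age and *Trp53* cannot be told apart. Every n is a number of libraries. For XTR tumors with wild-type *Trp53* the labels give each library its own animal, 10 non-restored and 7 restored. The study counts fewer mice for both groups, and this conflict could not be settled.

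The 32 libraries held between 1302482 and 5943951 expected counts. *Stk11* had at most 2.46 counts in any non-restored library of either *Trp53* background, and between 18.2 and 130 in every restored library, as labelled. Cells had been sorted for absence of CD45, CD31, F4/80 and Ter119. Summed TPM (RSEM's transcript abundance, scaled for gene length and library size) of 8 alveolar type II markers was between 6430 and 128000 in the 32 libraries. The summed TPM of 10 pulmonary neuroendocrine markers never exceeded 16.1.

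Neuroendocrine and endocrine cells store peptides in dense-core granules. Granins such as chromogranin A (*Chga*) and secretogranin II (*Scg2*) pack the granule, prohormone convertases such as *Pcsk1* cut the peptide precursors inside it, and *Ptprn* and *Ptprn2* encode related receptor-type tyrosine phosphatase family proteins of the granule membrane that lack ordinary phosphatase activity. In the normal lung this equipment marks the rare pulmonary neuroendocrine cells of the airway. *Nptx1* encodes a secreted neuronal pentraxin that gathers receptors at synapses, *Sstr2* a receptor for the inhibitory peptide somatostatin, and *Dlk1* a membrane protein related to Notch ligands, made from an imprinted locus.

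Promoter sequences are shown because several granule genes carry the cyclic AMP response element (CRE), the site of CREB-family factors, and because *Ptprn* is the member with the largest difference between groups. RefSeq promoter windows on GRCm38.p6, from 250 bases before to 50 after the annotated start, were at hand for 9 of the 10 genes (not *Nptx1*). The full CRE, TGACGTCA, read on both strands, was found in 4 of these 9 (*Scg2*, *Chgb*, *Pcsk1* and *Sstr2*), against 2.03% of 27025 genes with a window. Capitals mark the element in these 30-base windows, whose elements begin 68, 72, 78 and 58 bases before the start site.
Scg2, chr1:79440076-79440105, minus strand: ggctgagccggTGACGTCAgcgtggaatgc
Chgb, chr2:132781559-132781588, plus strand: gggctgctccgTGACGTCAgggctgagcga
Pcsk1, chr13:75089768-75089797, plus strand: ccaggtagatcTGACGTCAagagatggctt
Sstr2, chr11:113619258-113619287, plus strand: ccaagctgccgTGACGTCAcgggcgggggc

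*Ptprn* (chr1:75247027-75264502, minus strand) held no full CRE in either of its 2 promoter windows. The window of the outer start held the CRE core TGACG 2 times, once on each strand, beginning 117 and 80 bases before the start. This core, which the full CRE also contains, lay in 23.0% of the 27025 genes and in 8 of the 9 members, all but *Ptprn2*. Start sites here are those of RefSeq, whereas the gene span above is from GENCODE M21, in which *Ptprn* begins further out, at 75264502. The bases printed below thus lie inside that span, as the *Scg2* and *Chgb* windows lie inside the GENCODE spans of their genes. Capitals mark both cores in the 150 bases before the outer RefSeq start.
Ptprn, chr1:75264209-75264358, minus strand: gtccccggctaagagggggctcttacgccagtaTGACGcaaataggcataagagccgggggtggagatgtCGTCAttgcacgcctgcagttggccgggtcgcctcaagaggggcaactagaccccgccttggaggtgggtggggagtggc
The letters describe the windows and do not show binding of any factor. Of the 4 genes with the full element, only *Sstr2* had more than 4 counts in any library.

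The 10 genes divided sharply by detection. At or under 3 expected counts in a library, a gene was called undetected there (the floor). *Ptprn* and *Dlk1* were above the floor in all 32 libraries, *Nptx1* and *Ptprn2* in 31 each and *Sstr2* in 21. These 5 passed the filter on low counts, partly through the groups in which they were high, and the other 5 did not.

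**Figure D1:**
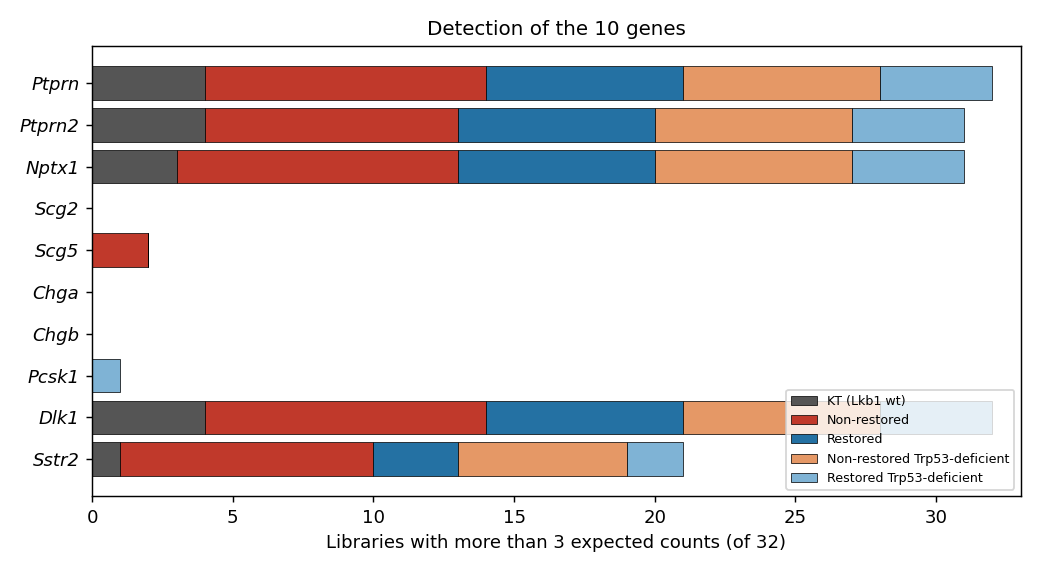
Number of libraries, of 32, with more than 3 expected counts of each gene, stacked by group. Bars for *Ptprn* and *Dlk1* reach all 32 libraries, *Scg5* is above the floor in 2 and *Pcsk1* in 1, and *Chga*, *Chgb* and *Scg2* have no bar because no library exceeded 3 counts.

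The granins and the convertase gene *Pcsk1* were close to absent in every group. *Scg2* had 2 counts in all 32 libraries together, *Chga* 4 and *Chgb* 4, with never more than 1 in a library. *Pcsk1* was at 0 in 25 libraries, and its highest count was 4. *Scg5*, which encodes a chaperone of a prohormone convertase, was at 0 in 20 libraries and reached 6 counts in the non-restored group. In all 7 restored libraries *Scg5* had 0 counts, which at these depths allows up to between 0.505 and 1.81 CPM (counts scaled to the library total) per library (3 counts of the library, counting error only). No fold change was computed for these 5 genes.

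*Ptprn* stood out in non-restored tumors. In *KT* libraries its level was 5.97, 9.09, 5.12 and 9.76 TPM. In non-restored libraries it ranged from 36.7 to 218 TPM with a median of 82.0. In restored libraries it ranged from 6.93 to 17.0 TPM with a median of 12.3. Every non-restored library lay above every *KT* and every restored library, and the *KT* and restored ranges overlapped. Of 12636 genes tested, 3.01% did not overlap in this direction between non-restored and *KT* tumors. Mean levels were 7.48 ± 2.28 TPM (SD, n = 4) in *KT*, 109 ± 62.1 (n = 10) in non-restored and 11.6 ± 3.58 (n = 7) in restored tumors. In bulk samples, fewer cells that use a gene and less of its RNA per cell cannot be told apart.

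On the count scale, the log2 fold change of *Ptprn* was −3.54 ± 0.33 (SE) in restored against non-restored tumors, 3.88 ± 0.45 in non-restored against *KT* and 0.34 ± 0.42 in restored against *KT*. The first of these contrasts chose the gene and the other 2 share its libraries, so no p-value is attached. Among female libraries alone, the sex of all restored libraries, the values over *KT* were 4.76 for non-restored and 1.0 for restored tumors, and without *KT* replicate 4 or 3 the latter was 0.69 or 0.11. As background, 0.894% of the 12636 genes were called lower after restoration by edgeR's quasi-likelihood test at an adjusted p under 0.05, and TPM did not overlap in that direction for 0.269%. Each of the 10 tested genes within 100 kb of *Ptprn* had a log2 fold change between −0.39 and 0.35, and 0 of them were called. Its neighbor *Resp18* (chr1:75272199-75278415), itself a gene of neuroendocrine granules, never exceeded 4 counts.

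*Nptx1* (chr11:119538719-119547753, minus strand) had a similar order of groups at a lower level. *KT* libraries had 0.5, 1.19, 1.48 and 1.81 TPM, non-restored libraries 3.86 to 9.76 with a median of 7.58, and restored libraries 0.78 to 2.14 with a median of 1.46. Again the non-restored libraries stood entirely above both other groups. Its log2 fold changes were −2.15 ± 0.27 in restored against non-restored, 2.27 ± 0.36 in non-restored against *KT* and 0.12 ± 0.36 in restored against *KT* tumors. These rest on few reads, since the *KT* libraries held 3 to 15 counts of *Nptx1* and the restored libraries 10 to 34. Among the other pentraxins, *Nptx2* never exceeded 2 counts, and the receptor gene *Nptxr* reached at most 1.62 TPM.

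**Figure D2:**
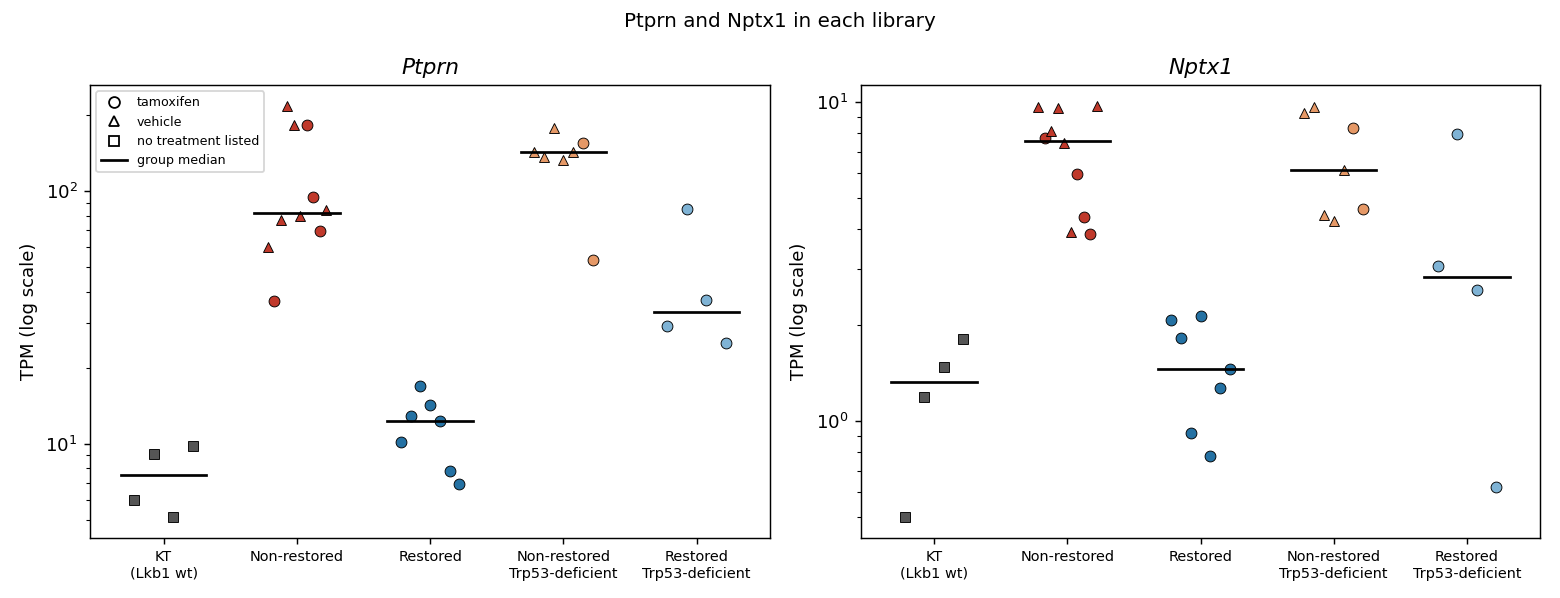
TPM on a log axis of *Ptprn* (left) and *Nptx1* (right) in each of the 32 libraries by group, with circles for tamoxifen, triangles for vehicle, squares for no treatment listed and a line at the group median. Non-restored libraries with wild-type *Trp53* lie at 36.7 TPM or more for *Ptprn* and 3.86 or more for *Nptx1*, above all *KT* and restored libraries of that background, whereas one restored *Trp53*-deficient library lies among the non-restored ones.

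Within the non-restored group, no difference of *Ptprn* or *Nptx1* between the control arms was detected. *Ptprn* had 36.7, 183, 94.8 and 69.5 TPM in the tamoxifen arm and 59.8 to 218 TPM, median 82.0, in the vehicle arm. Tamoxifen over vehicle gave a log2 fold change of −0.20 ± 0.38 (adjusted p = 1.0, edgeR), in a comparison that called 0.00791% of genes. The value for *Nptx1* was −0.51 ± 0.31 (adjusted p = 1.0, edgeR). The direction for *Ptprn* turned without replicate 2 or 4 and among female libraries alone, where it was 0.23. The genes did not rank these libraries alike. Replicate 4 was high in both, with 218 TPM of *Ptprn* and 9.6 of *Nptx1*, whereas replicate 1 had 59.8 and 9.63, and replicate 7 had 183 and 5.95.

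*Trp53*-deficient tumors gave libraries outside the *Trp53* wild-type comparison, although both genes were chosen with results of all 5 groups at hand, so that these are not shown to be independent of the choice. The 3 libraries of animal 1 had 143, 136 and 178 TPM of *Ptprn*, the 2 of animal 2 had 133 and 143, and animals 3 and 4 had 155 and 53.4. The 4 restored libraries had 29.2, 84.6, 37.0 and 25.0 TPM. Of the restored libraries 3 lay below all non-restored ones, and replicate 2 lay above the library of animal 4. With libraries of one animal summed, the log2 fold change was −1.54 ± 0.53, which did not pass (adjusted p = 0.803, edgeR), and 0 of 12518 genes (0.0%) were called. Without restored replicate 2 the log2 fold change was −2.23, with an adjusted p of 0.323 by the same test.

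For *Nptx1* in *Trp53*-deficient tumors, non-restored libraries had 4.23 to 9.69 TPM with a median of 6.15, and restored libraries 3.07, 7.93, 2.58 and 0.62. Restored replicate 2 was again the highest of its group and lay within the non-restored range. This gave a log2 fold change of −0.85 ± 0.60 (adjusted p = 0.806, edgeR) and −1.64 without that replicate. Its *Stk11* level, 8.36 TPM, was the lowest of its group, against 11.8, 9.63 and 14.8 in the others, and its *Sstr2* level, 4.8 TPM against 1.74, 0.6 and 0.14, was also the highest. Both genes had a smaller fold change than with wild-type *Trp53*, but the difference between the backgrounds was not tested.

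**Figure D3:**
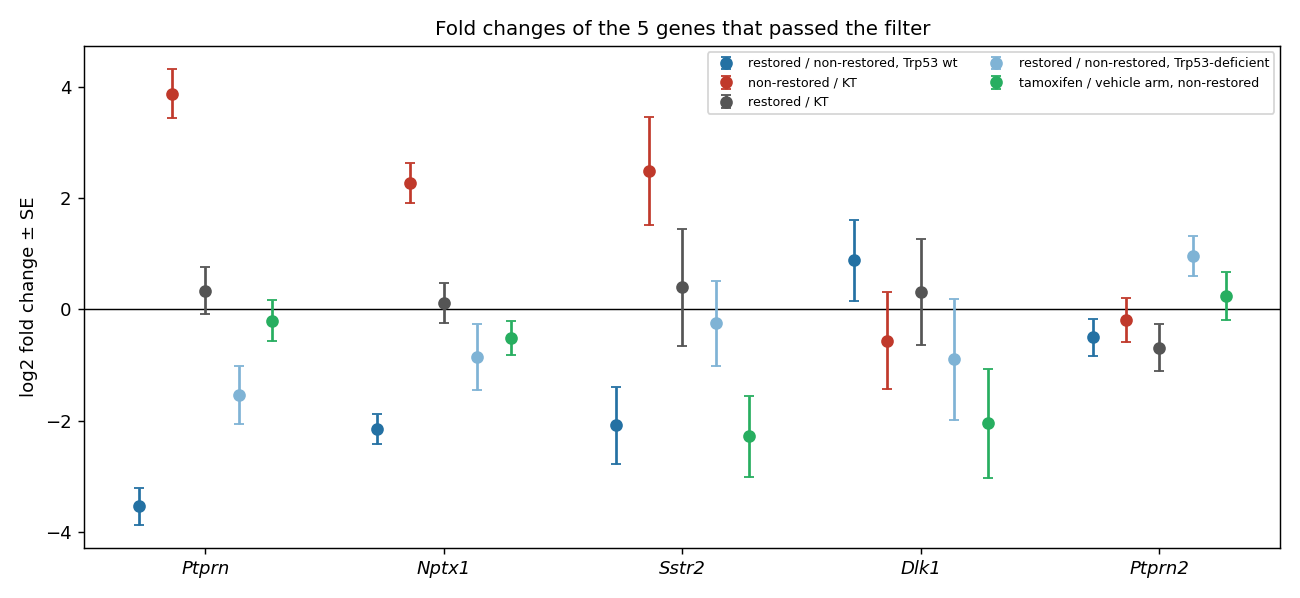
Log2 fold change ± SE from edgeR of the 5 genes that passed the filter, in 5 comparisons. For *Ptprn* the points lie at −3.54 for restored against non-restored and 3.88 for non-restored against *KT* with wild-type *Trp53*, and at −1.54 in *Trp53*-deficient tumors, while the points of *Ptprn2* stay between −0.69 and 0.96.

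*Ptprn2* (chr12:116485720-117276849, plus strand), the paralog of *Ptprn*, did not share this pattern at the depth of these libraries. It had 2.13, 2.37, 2.97 and 4.22 TPM in *KT* libraries, 0.85 to 7.81 with a median of 3.98 in non-restored and 0.89 to 4.03 with a median of 1.73 in restored libraries, and all 3 ranges overlapped. Restored tumors had a log2 fold change of −0.50 ± 0.33 against non-restored (adjusted p = 0.503, edgeR), where 1.87% of all genes were called in either direction. It was −0.19 ± 0.40 for non-restored against *KT* (adjusted p = 0.833), a direction that turned to 0.27 when gene lengths per library entered the fit. The mean level of *Ptprn* was 2.56 times that of *Ptprn2* in *KT*, 28.1 times in non-restored and 6.01 times in restored tumors, on the length-scaled TPM scale. In *Trp53*-deficient tumors *Ptprn2* had 0.97 to 3.73 TPM in non-restored and 4.4, 2.39, 1.9 and 4.45 in restored libraries, with a log2 fold change of 0.96 ± 0.36 (adjusted p = 0.803, edgeR).

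*Sstr2* (chr11:113619342-113626028, plus strand) was low throughout, and the non-restored control arms stood apart in it. In the non-restored group the tamoxifen arm had 0.0, 1.63, 1.06 and 1.15 TPM and the vehicle arm 2.02 to 8.16 with a median of 5.35. The arms did not overlap, in a direction in which 0.506% of genes did not overlap. The log2 fold change of tamoxifen over vehicle was −2.28 ± 0.73. It is given without a test, because *Sstr2* passed the filter through the vehicle arm, in which it was high. The highest levels, 5.25 to 9.78 CPM, were in that arm, and no other *Trp53* wild-type library exceeded 2.83 CPM. Restored libraries, all given tamoxifen, had 0.0 to 1.97 TPM with a median of 0.46, and *KT* libraries had 0.98, 0.0, 1.79 and 0.0. Every *Trp53* wild-type library outside the vehicle arm was thus below every library in it, but narrowly. The closest were non-restored replicate 6 (2.02 TPM, 13 counts) and restored replicate 1 (1.97 TPM, 4 counts). The share of all genes with such a separation was not computed.

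Against the pooled non-restored group, *Sstr2* had a log2 fold change of −2.08 ± 0.69 in restored tumors, and non-restored tumors had 2.49 ± 0.97 over *KT*. Set against the vehicle arm alone, the values were −2.67 for restored and 3.07 over *KT*. Restored over *KT* gave 0.40 ± 1.05. All these are given without a test, because *Sstr2* passed the filter through the arm in which it was high. Between restored and *KT* tumors, where 0.459% of genes were called, neither *Ptprn2* (−0.69 ± 0.42, adjusted p = 0.596) nor *Dlk1* (0.32 ± 0.95, adjusted p = 0.944) passed edgeR's test. Beside the tamoxifen arm alone *Sstr2* did not pass the filter, so that no such test was made. Its mean level was 0.96 TPM in that arm and 0.797 in restored tumors, which also received tamoxifen, a ratio of 1.2. The arms differed in *FLPo-ERT2* and in treatment, which cannot be told apart, and in the share of females (2 of 4 against 5 of 6). Depth differed as well, at 1524746, 4260332, 4532541 and 5080811 expected counts in the tamoxifen arm. In the vehicle arm it was 4307301 in replicate 6, which had that arm's lowest *Sstr2* level (2.02 TPM), and 1485923 to 2975020 in the others. The part of depth in the arm difference was not tested. Among females the tamoxifen arm had 1.63 and 1.06 TPM and the vehicle arm 2.02 to 8.16, and among males 0.0 and 1.15 against 3.79. Females alone gave a log2 fold change of −1.96 between the arms, and over 15 alternative settings it lay between −2.66 and −1.96. In *Trp53*-deficient non-restored tumors the 2 tamoxifen libraries had 2.31 and 2.32 TPM, inside the 0.76 to 5.35 of the vehicle libraries. The other somatostatin receptors, *Sstr1*, *Sstr3*, *Sstr4* and *Sstr5*, never exceeded 2 counts, and the ligand gene *Sst* never exceeded 3.

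**Figure D4:**
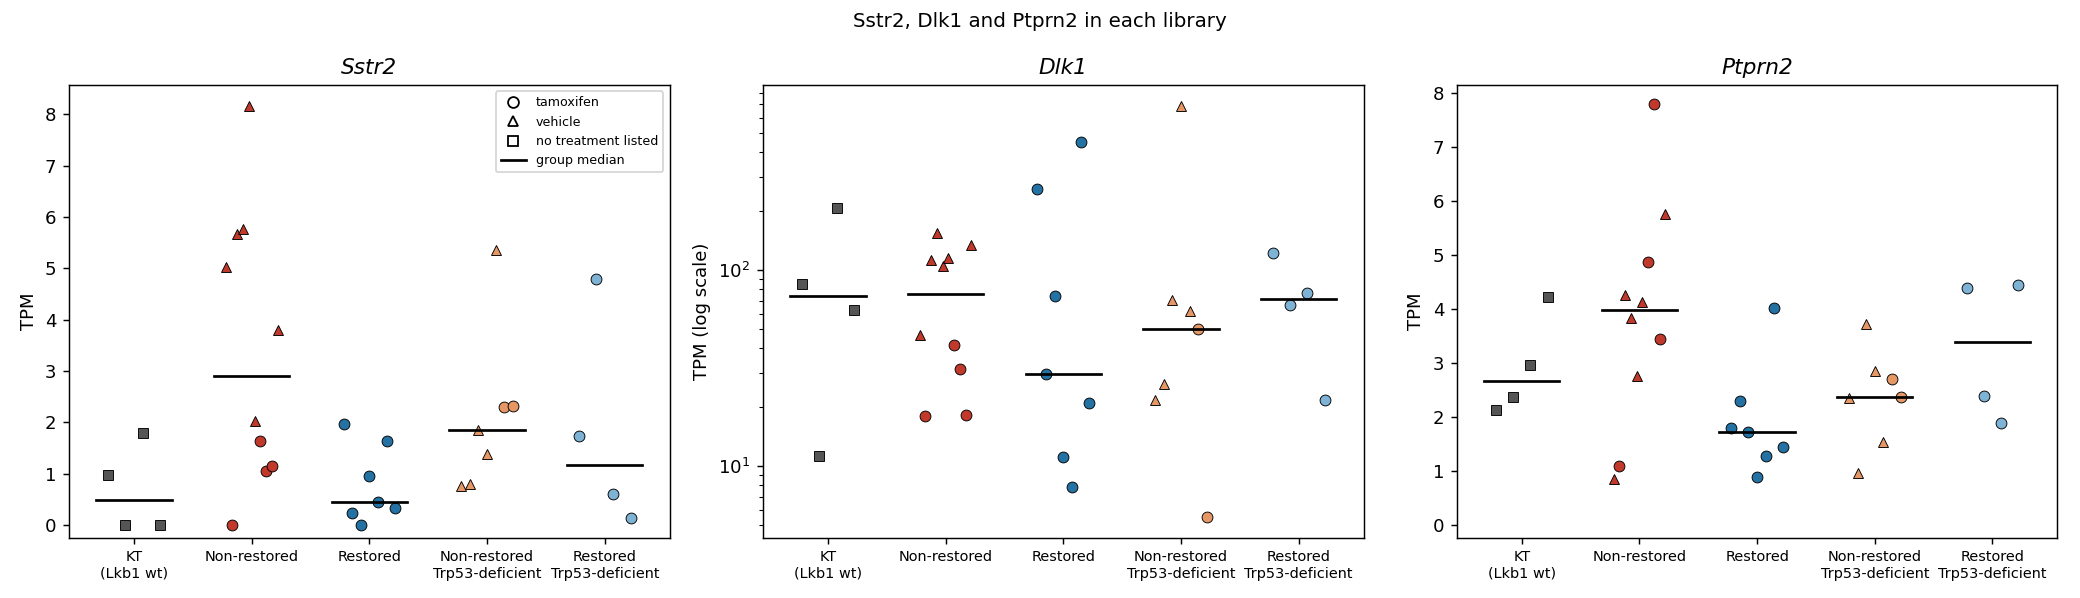
TPM of *Sstr2* (left, linear axis), *Dlk1* (middle, log axis) and *Ptprn2* (right, linear axis) in each library by group, with circles for tamoxifen, triangles for vehicle, squares for no treatment listed and lines at group medians. In the non-restored group with wild-type *Trp53* all triangles lie above all circles for *Sstr2* and *Dlk1*, and the arms are mixed for *Ptprn2*.

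*Dlk1* (chr12:109452823-109463336, plus strand) had the widest range, 5.51 to 691 TPM over the 32 libraries. *KT* libraries had 85.1, 11.3, 207 and 62.8 TPM, non-restored libraries 18.1 to 154 with a median of 75.9, and restored libraries 7.88 to 449 with a median of 29.7. The restored range was 56.9-fold wide and contained the whole non-restored range. Its log2 fold change was 0.88 ± 0.73 for restored against non-restored (adjusted p = 0.632, edgeR) and −0.56 ± 0.87 for non-restored against *KT* (adjusted p = 0.771). The first value was 2.40 against the tamoxifen arm alone (adjusted p = 0.39), 0.35 against the vehicle arm alone and 0.08 without restored replicate 6, which had 449 TPM. The second was −2.07 with the tamoxifen arm alone, −0.03 with the vehicle arm alone and 0.22 without *KT* replicate 3. Libraries of one animal also differed, since the 2 libraries of *Trp53*-deficient animal 2 had 691 and 61.9 TPM. Without that animal the log2 fold change of restoration in *Trp53*-deficient tumors turned from −0.90 ± 1.08 to 0.84, and it did not pass with or without it.

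Like *Sstr2*, *Dlk1* did not overlap between the non-restored arms. The tamoxifen arm had 18.1, 41.7, 31.5 and 18.2 TPM and the vehicle arm 46.5 to 154 with a median of 114. The log2 fold change of −2.05 ± 0.98 did not pass (adjusted p = 1.0, edgeR). Restored libraries, also given tamoxifen, had 7.88 to 449 TPM with a median of 29.7, a range that contained the tamoxifen arm. The imprinted noncoding RNA *Meg3*, which lies beside *Dlk1* and is expressed from the other parental allele, had a log2 fold change of 0.29 ± 0.67 between the arms (adjusted p = 1.0, edgeR).

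The rest of the granule pathway was described from a list of 29 genes for granule cargo, processing and release, which includes 7 of the members. Of the 29, 10 never exceeded 3 counts and 13 passed the filter with wild-type *Trp53*. With *Ptprn* set aside as selected on this contrast, 0 of the other 12 were called for restored against non-restored, where 1.87% of all genes were called, and 2 had an unadjusted edgeR p under 0.05. Their median log2 fold change was −0.25 against −0.01 for all genes tested. In non-restored against *KT* tumors, where 5.86% of all genes were called, 1 of these 12 was called. This was *Rab27a*, a GTPase that docks secretory vesicles, which was lower at −0.93 ± 0.20 (adjusted p = 0.00618, edgeR). *Rab27b*, also in the list, went the other way at 0.74 ± 0.23 and did not pass (adjusted p = 0.0615, edgeR). *Rab27a* had 43.2 to 98.3 TPM in *KT* and 25.5 to 68.0 in non-restored libraries. The call was lost in 3 of 23 alternative settings, without *KT* replicate 3 (−0.78, adjusted p = 0.0507), with the tamoxifen arm alone (adjusted p = 0.0569) and with females alone (adjusted p = 0.164). In *Trp53*-deficient tumors 0 of 14 tested genes of the list were called.

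Some processing and release genes of the list are used by many secretory cells, and these were more widely detected. *Pam*, which amidates peptides and was singled out after its values were seen, had 18.4 to 47.6 TPM in *KT*, 36.0 to 279 in non-restored and 15.3 to 139 in restored libraries. Its log2 fold change of −0.99 in restored against non-restored tumors did not pass (adjusted p = 0.371, edgeR). *Cpe*, which encodes the carboxypeptidase that trims cut peptides, was above 3 counts in 27 libraries and had 0.0 to 9.2 TPM in *KT*, 0.0 to 115 in non-restored and 0.21 to 18.3 in restored libraries. Its log2 fold change of −2.0 ± 0.98 in restored against non-restored tumors did not pass either (adjusted p = 0.342, edgeR).

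Of 23 neuropeptide and peptide hormone genes, 12 never exceeded 3 counts, 3 passed the filter (*Npy*, *Nmb* and *Adcyap1*), and 0 were called in any of the 5 comparisons. *Npy*, which encodes neuropeptide Y and was also singled out after its values were seen, was listed at 0 in all 4 *KT* libraries. It ran from 0.0 to 935 TPM with a median of 13.4 in non-restored and from 0.0 to 17.6 with a median of 0.0 in restored libraries. Its log2 fold change in restored against non-restored tumors was −4.57 ± 1.53. It is given without a test, because *Npy* passed the filter through the non-restored group, in which it was high.

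Markers and regulators of neuroendocrine cells were detected unevenly. *Hes6*, a transcriptional regulator related to Notch targets, and *Slc18a2*, a vesicular monoamine transporter, were above 3 counts in all 32 libraries, at up to 19.3 and 8.14 TPM, whereas *Ncam1*, *Slc18a1* and *Syp* passed 3 counts in 7, 12 and 6 libraries. *Neurod1*, a transcription factor that drives neuroendocrine fate, had 0 counts in all 32 libraries, and *Calca* and *Grp*, peptides of pulmonary neuroendocrine cells, never exceeded 2 and 3. The summed TPM of the 10 pulmonary neuroendocrine markers was 0.0 to 4.41 in *KT*, 0.11 to 9.8 in non-restored and 0.52 to 2.39 in restored libraries, and 3.51 to 16.1 and 2.72 to 14.8 in non-restored and restored *Trp53*-deficient libraries. *Rest*, a repressor of neuronal genes named after its values were seen, had 15.9 to 22.0 TPM in *KT*, 19.3 to 28.7 in non-restored and 19.6 to 24.1 in restored libraries. Its log2 fold change was −0.03 in restored against non-restored tumors (adjusted p = 0.924, edgeR). Of 14 regulators and markers, 3 passed the filter and 0 were called in the 5 comparisons.

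Of 8 markers of neurons and glia, 1 passed the filter, *Map2*, a microtubule protein of dendrites. It was higher in non-restored tumors than in *KT*, with a log2 fold change of 2.21 ± 0.64 (adjusted p = 0.0433, edgeR). Its TPM ranges, 1.05 to 7.24 in *KT* and 2.49 to 25.0 in non-restored libraries, overlapped. The call was lost in 12 of 23 alternative settings, among them each one that left out a *KT* library (adjusted p 0.0798 to 0.137). In restored against non-restored tumors *Map2* had −1.07 with wild-type *Trp53* (adjusted p = 0.248, edgeR) and 1.03 with deficient *Trp53* (adjusted p = 0.803). The summed TPM of this marker list was 4.03 to 11.4 in *KT*, 4.44 to 30.0 in non-restored and 2.16 to 10.6 in restored libraries. Its part in the results for *Ptprn* and *Nptx1* was not tested.

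Markers of other cells that the sort could have left varied widely within groups. The summed TPM of 5 endothelial markers was 2.59 to 6.55 in *KT*, 1.71 to 53.1 in non-restored and 1.09 to 34.5 in restored libraries. The 4 that passed the filter had a median log2 fold change of 2.3 in non-restored over *KT* and −0.83 in restored against non-restored tumors, and 0 were called. For 5 fibroblast markers the sums were 10.1 to 38.7, 2.55 to 205 and 14.1 to 131 in the same order of groups, with medians of 1.51 and −0.27 and 0 calls. Sums of 8 immune markers were 12.4 to 32.7, 8.04 to 60.8 and 7.18 to 77.8, with a median of 1.02 after restoration over the 3 that were tested and 0 calls. Of these, *Ptprc*, which encodes CD45, and *Cd68*, a macrophage marker, had log2 fold changes of 1.72 and 1.02 after restoration (unadjusted edgeR p = 0.043 and 0.0313, adjusted p = 0.308 and 0.271). Airway markers summed to 29.9 to 960, 28.3 to 646 and 23.6 to 877 TPM, with 0 of 3 called, and red blood cell markers never exceeded 12.8 TPM in these 3 groups. The endothelial markers thus had medians in the same order of groups as *Ptprn*, and their part in its values was not tested.

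Of 13 genes of Notch signaling, *Dlk1* among them, 9 passed the filter. *Notch1*, a receptor, was the one called gene. It was higher in restored against non-restored tumors by 0.66 ± 0.10 (adjusted p = 0.000507, edgeR), where 1.87% of all genes were called. It was lower in non-restored tumors against *KT*, at −0.44 ± 0.12 (adjusted p = 0.0288), where 5.86% were called. It had 8.96 to 18.6 TPM in restored, 5.86 to 10.8 in non-restored and 5.86 to 11.9 in *KT* libraries. The difference from *KT* was lost in 8 of 23 alternative settings, including those without *KT* replicate 1, 3 or 4 (adjusted p = 0.0827, 0.133 and 0.0584).

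The genes whose pattern was most like that of *Ptprn* over all 32 libraries were *Cavin3*, *Ubr4*, *Itgav*, *Gatsl2* and *Itgb3*, with Pearson correlations of log2 CPM of 0.896, 0.864, 0.854, 0.84 and 0.833. *Nptx1* came next at 0.831, rank 6 of 12635 genes. For *Nptx1* they were *Cavin3* (0.833), *Itgav* (0.832), *Ptprn* (0.831), *Itgb3* (0.811) and *Stxbp6* (0.795). These points share the 5 groups and the libraries that chose both genes. *Sstr2* ranked 429, *Dlk1* 6305 and *Ptprn2* 7516 for likeness to *Ptprn*, with correlations of 0.588, −0.003 and −0.096. Within the 10 non-restored libraries, the correlation of *Ptprn* was 0.57 with *Sstr2*, 0.49 with *Dlk1*, 0.44 with *Cavin3*, 0.33 with *Ptprn2*, 0.05 with *Itgav* and 0.01 with *Nptx1*.

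The form of *Ptprn* transcripts could be followed only through the length that RSEM assigned to the gene, an average over its 6 annotated transcripts weighted by their estimated abundance. The longest of these has 3554 bases and the other 5 between 410 and 728. The assigned length was 2690 to 3288 bases in non-restored and 2934 to 3281 in *Trp53*-deficient non-restored libraries. It was 1725 to 3554 in *KT* and 1779 to 3061 in restored libraries, where *Ptprn* had at most 49.0 and 100 counts. Restored *Trp53*-deficient libraries had 2410 to 3284 bases, with 2410 at 209.84 counts and 2596 at 214. Both lay under the non-restored minimum, although non-restored replicate 2 had 2767 bases at 107 counts. The shortest lengths occurred where few reads were assigned, and depth and transcript form cannot be told apart here. The fold change of *Ptprn* in restored against non-restored tumors stayed between −3.76 and −3.13 on the log2 scale over 26 alternative settings, one of which entered these lengths in the fit.

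**Figure D5:**
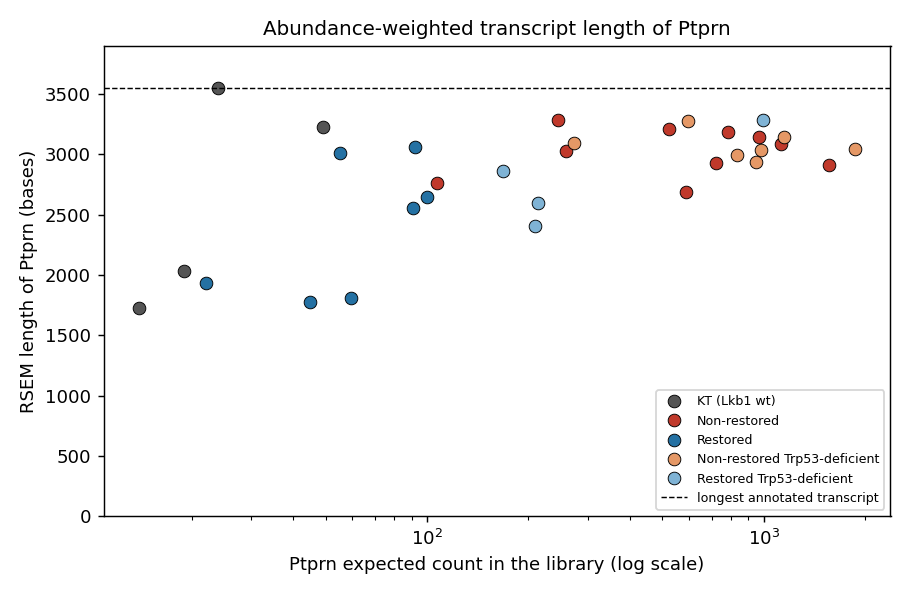
Length in bases that RSEM assigned to *Ptprn*, against its expected count on a log axis, one point per library colored by group, with a dashed line at the 3554 bases of the longest annotated transcript. Libraries with 245.0 counts or more lie between 2690 and 3288 bases, and libraries under 100 counts spread from 1725 to 3554.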

How the data were processed

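RNA of sorted tumor cells was sequenced in 32 libraries. Per the labels and the study's methods, the authors aligned reads to mm10 with STAR 2.6.1d and estimated abundances with RSEM 1.2.30. The deposited expected counts are RSEM's unnormalized estimates, and the deposited TPM values are scaled for length and library size by the authors. Their DESeq2 1.26.0 tables of normalized counts, fold changes and p-values were not used here. Expected counts were rounded, filtered with filterByExpr, scaled by TMM and tested over all genes with edgeR's quasi-likelihood test (edgeR 4.0.16, R 4.3.3), with Benjamini-Hochberg adjustment and a threshold of 0.05. One fit held all 21 libraries with wild-type *Trp53*. *Trp53*-deficient libraries of one animal were summed (4 units against 4). Standard errors are those implied by the F statistic. Coordinates are from GENCODE M21 (GRCm38). Correlations used log2 CPM with a prior count of 2.

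The members and gene lists were chosen with earlier results of these data known. By rule, named genes are the 10 members, *Stk11*, list genes with an adjusted p under 0.05 (at most 8 per list) and the 5 genes most like *Ptprn* and *Nptx1*. Further genes fall outside this rule. Of these *Pam*, *Npy* and *Rest* are marked where they appear, and others, such as *Cpe*, *Hes6*, *Ptprc* and *Cd68*, are not. The lists, 14 in all, also covered markers of red blood, airway, fibroblast, endothelial and immune cells. On simulated data the test recovered 61% of 2-fold and 93% of 4-fold changes in restored against non-restored tumors with wild-type *Trp53*, and 14% and 60% with deficient *Trp53*. False genes made up 3.75% of those called with wild-type *Trp53* and 10.84% with deficient *Trp53*, above the threshold of 0.05. The study counts fewer mice than libraries for XTR tumors with wild-type *Trp53*, restored or not, whereas the labels give each library its own animal. Some libraries may thus share a mouse, and p-values then measure partly technical spread. No 2 replicates matched within sampling noise. An allele shared by all groups and a marker gene are not reported here. Limits from a count of 0 cover counting error only. Alternatives were DESeq2 1.42.0, median-of-ratios factors, no filter, length offsets, single arms, females alone, 2-group fits, a replicate block and leaving out each replicate.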

Additional observations from a re-analysis of the deposited data

Results flagged for a closer look

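Dixon's test was run on the log2 CPM of the 5 members that passed the filter, in 25 sets of 4 to 10 units, and chance flags about 1 in 20. One value stood apart. *Sstr2* in *Trp53*-deficient non-restored animal 1 was lowest at 1.14 against 2.01 for the nearest of the other 3 animals, with a gap of 0.876 of the whole range. That animal gave 3 libraries, of 0.76, 0.81 and 1.85 TPM.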

How the results depend on the processing

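Of 620 alternative values of the named genes, 574 kept direction and side of the threshold, 23 lost a call, 4 gained one, 18 turned direction and 1 moved beyond the replicate spread (*Ptprn*, non-restored over *KT*, 4.76 with females alone). *Ptprn* and *Nptx1* kept their sign in every alternative run of the restored and *KT* comparisons with the non-restored group. Both were chosen on these libraries, so this is a description and no support. The numbers of genes called moved more, and the cause was not tested. DESeq2 called 473 genes (restored against non-restored), 175 (restored against *KT*), 27 (*Trp53*-deficient) and 13 (arms), where edgeR called 236, 58, 0 and 1. In *Trp53*-deficient tumors 748 genes had an unadjusted edgeR p under 0.05. The tamoxifen arm alone gave 50 (restored) and 280 (*KT*), and females alone 132 (non-restored against *KT*) and 10 (restored against *KT*), in smaller fits. In *Trp53*-deficient tumors no filter gave 3, length offsets 1 and all 7 non-restored libraries kept separate 1, and without a filter the arms gave 0.

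Leaving out one replicate gave 145 to 319 calls (lowest without restored replicate 7, then 155 and 157 without 2 and 1), 340 to 951 for non-restored against *KT* (340, 418 and 459 without *KT* replicates 1, 3 and 4), 21 to 57 for restored against *KT* (21, 22 and 37 without *KT* 1, *KT* 4 and restored 1), 0 to 1 in *Trp53*-deficient tumors (1 without non-restored animal 3) and 0 to 1 between the arms (0 without replicate 1, 4, 5, 6, 7, 8, 9 or 10).

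Directions that turned were those of values that did not pass or were not tested. With length offsets *Ptprn2* (non-restored over *KT*) was 0.27 and *Sstr2* (restored over *KT*) −0.11. With females alone *Sstr2* was −0.2 over *KT* and 0.05 in *Trp53*-deficient tumors, *Dlk1* 1.6 there and *Ptprn* 0.23 between arms. Leave-one-out ranges were −0.91 to 0.22 (*Dlk1*, non-restored over *KT*), −0.48 to 1.11 (*Dlk1*, restored over *KT*), −0.11 to 0.34 (*Nptx1*) and −0.0011 to 2.09 (*Sstr2*) for restored over *KT*, −1.31 to 0.84 (*Dlk1*) and −1.33 to 0.13 (*Sstr2*) in *Trp53*-deficient tumors, and −0.64 to 0.09 (*Ptprn*) between arms. Calls over *KT* lost without one library were *Rab27a* (*KT* 3), *Notch1* (*KT* 1, 3 or 4) and *Map2* (any *KT* library, or non-restored 1, 3 or 5).

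Replicate numbers did not pair the samples, since same-numbered restored and non-restored libraries correlated at 0.0457 to 0.5 and none of them best with its own number, and same-numbered *KT* pairs at −0.0543 to 0.13, of which 3 matched best with their own number. With the replicate block 270, 705 and 67 genes were called in the 3 *Trp53* wild-type comparisons. *Dlk1* turned to −0.09 (restored over non-restored), 0.05 (non-restored over *KT*) and −0.03 (restored over *KT*). *Npy* had −3.57 (restored over non-restored), given without a test because it passed the filter through the non-restored group. The block changed no call of any other named gene. Members at or near the floor are limited by depth.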
